A study of Mus musculus with 16 samples.

Results

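Hedgehog reception and response in mTEC was described through 9 of the 89407 rows of the count table. They are the coreceptor genes Boc, Gas1 and Cdon, the receptor gene Ptch1, the decoy receptor gene Hhip, the transducer gene Smo and the transcription factor genes Gli1, Gli2 and Gli3. The rows were found by Ensembl identifier through the GENCODE M21 annotation of GRCm38, and all 9 had a value in each of the 16 libraries. Boc and Gas1 were chosen by their values in mature against immature mTEC, where they are among the rows most enriched in immature cells. For the 9 genes that contrast is therefore described and not tested. Genotype, mouse line and sex are not part of that rule, though the 9 genes were chosen with earlier results of these data known.

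Hedgehog proteins are secreted, lipid-modified signals encoded by Shh, Ihh and Dhh. They are bound by PTCH1 together with a coreceptor, BOC, CDON or GAS1, and this binding lifts the block that PTCH1 places on SMO. SMO then acts at the primary cilium so that GLI2 and GLI3 are no longer processed to repressors, and GLI1 and PTCH1 are themselves common targets of the response, while HHIP traps the ligand. In the thymus the pathway is known from ligand made by epithelial cells and from responses of thymocytes and epithelium.

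Mature and immature medullary thymic epithelial cells (mTEC), the cells that present self-antigens to T cells in the thymus medulla, were sorted by high or low MHC class II among CD45- EpCAM+ Ly51- UEA+ cells, 10000 cells a sample, from 8 mice aged 4 to 6 weeks given as C57BL/6 in the labels. By the study's methods, however, both mutant lines were of mixed background, from the strains C57BL/6J and 129S2/Sv. In the Rbfox1 and the Rbfox2 line, 2 tKO mice were compared with 2 control mice, 1 female and 1 male in each group. Control mice were lox/lox at Rbfox1 or Rbfox2 with Foxn1 wildtype/wildtype, and tKO mice were lox/lox with Foxn1 wildtype/cre, so that every mouse of a line carried the floxed gene and Cre was driven by the Foxn1 locus, which is active in thymic epithelium. Carrying Cre and losing the gene cannot be told apart.

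The counts of a library summed to 1506134 to 2430287 in immature and 3737884 to 4636367 in mature mTEC. Rbfox2 had 34 to 70 counts in the 4 libraries of Rbfox2 tKO mice against 157 to 247 in their controls, and was called lower in both populations. Rbfox1, counted over the whole gene, had 126 and 156 against 225 and 247 counts in mature and 299 and 327 against 381 and 391 in immature mTEC, and was called in neither. Of 7 immature mTEC markers, 6 could be tested and were called higher in immature mTEC of control mice, among them Krt5 and Krt14, whereas Ccl21a, which has near-identical copies, had 0 to 5 counts in every library. Of 10 mature mTEC markers 7 were called higher in mature mTEC, Aire with a log2 fold change of 3.27 among them. H2-Aa, an MHC class II gene used by the sort, had 0.86. Cd86, with 0 to 4 counts in immature and 104 to 199 in mature libraries, passed the filter on low counts only through mature mTEC. Nothing is read from its value. Of all rows, 11.1% were called higher in immature and 26.8% higher in mature mTEC of these mice.

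On GRCm38, Boc (ENSMUSG00000022687) lies on chromosome 16 from 44485049 to 44558897, Gas1 (ENSMUSG00000052957) on chromosome 13 from 60174405 to 60177365, Ptch1 (ENSMUSG00000021466) on chromosome 13 from 63508328 to 63573598 and Gli3 (ENSMUSG00000021318) on chromosome 13 from 15463235 to 15730026. Cdon (ENSMUSG00000038119) lies on chromosome 9 from 35421128 to 35507652, Smo (ENSMUSG00000001761) on chromosome 6 from 29735503 to 29761365, Hhip (ENSMUSG00000064325) on chromosome 8 from 79965851 to 80058006, Gli1 (ENSMUSG00000025407) on chromosome 10 from 127329882 to 127341974 and Gli2 (ENSMUSG00000048402) on chromosome 1 from 118834132 to 119053619. Exons of 4 of them overlap an annotated gene on the other strand. Gas1 shares 589 exon bases with Gm48488, Gli1 shares 62 with Arhgap9 and 265 with Gm47200, Gli3 shares 188 with Gm6556 and Hhip shares 175 with Gm27820. The strand setting of the counting is not known here, so reads of these stretches cannot be assigned to a strand.

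RefSeq promoter windows of GRCm38.p6, 250 bases before to 50 after the start, were at hand for 7 of the 9 genes. Those of Gas1, Smo and Gli3, which were lower in mature mTEC, and of Ptch1, a common GLI target in other tissues, are shown 5′ to 3′ on the gene's strand. Capitals mark matches on either strand to CCACCC, the CACC box, or GGGCGG, the GC box. The letters CCACCC also lie within the GLI consensus GACCACCCA, but alone are not that site. Overlapping matches run together.
The Gas1 window is chr13:60177486-60177785 on the minus strand, the Smo window chr6:29735247-29735546 on the plus strand, the Gli3 window chr13:15463473-15463772 on the plus strand and the Ptch1 window chr13:63565686-63565985 on the minus strand. These RefSeq starts are not always the outermost GENCODE ones. The windows of Ptch1, Gli3 and Cdon (chr9:35451826-35452125, not shown) lie wholly within the gene bounds given above, and that of Gas1 wholly outside them.
Gas1: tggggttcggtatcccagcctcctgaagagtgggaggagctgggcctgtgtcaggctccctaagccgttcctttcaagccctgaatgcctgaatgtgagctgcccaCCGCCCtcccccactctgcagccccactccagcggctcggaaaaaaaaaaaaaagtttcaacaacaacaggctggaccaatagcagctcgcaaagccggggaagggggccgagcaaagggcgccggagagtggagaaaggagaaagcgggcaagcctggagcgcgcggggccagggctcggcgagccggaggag
Smo: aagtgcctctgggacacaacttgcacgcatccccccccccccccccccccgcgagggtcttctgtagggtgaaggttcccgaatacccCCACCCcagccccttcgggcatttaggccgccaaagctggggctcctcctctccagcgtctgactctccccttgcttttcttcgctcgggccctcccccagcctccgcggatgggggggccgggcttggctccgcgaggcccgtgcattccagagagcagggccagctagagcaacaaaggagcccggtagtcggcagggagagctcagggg
Gli3: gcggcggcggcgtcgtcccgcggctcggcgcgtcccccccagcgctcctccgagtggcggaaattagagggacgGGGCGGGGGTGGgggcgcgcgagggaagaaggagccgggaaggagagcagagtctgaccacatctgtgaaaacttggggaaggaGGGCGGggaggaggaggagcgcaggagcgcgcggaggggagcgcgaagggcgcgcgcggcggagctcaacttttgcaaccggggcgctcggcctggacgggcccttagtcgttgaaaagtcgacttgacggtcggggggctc
Ptch1: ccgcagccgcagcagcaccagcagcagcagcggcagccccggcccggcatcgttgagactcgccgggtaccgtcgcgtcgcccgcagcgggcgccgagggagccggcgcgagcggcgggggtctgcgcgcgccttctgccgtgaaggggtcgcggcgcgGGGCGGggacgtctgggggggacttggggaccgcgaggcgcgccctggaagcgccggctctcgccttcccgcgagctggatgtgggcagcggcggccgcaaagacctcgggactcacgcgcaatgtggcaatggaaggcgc
The full consensus GACCACCCA was in none of the 7 windows and in 0.253% of all 32851 promoter windows. CCACCC was in 4 of the 7, against 31.5% of all, and GGGCGG in 5 of the 7, against 35.7% of all. A match here is a run of letters, and a window without one says nothing about binding elsewhere in the gene.

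Per kilobase of exon, Gas1 had the highest level of the 9 genes in immature mTEC, with 121 ± 40.6 CPM per kb (SD, n = 8 mice), followed by Boc with 62.3 ± 4.97. Hhip had 29.4 ± 2.35 and Smo 24.8 ± 3.57 CPM per kb, and the ranges of these 2 neighbours overlapped. Gli3 (6.80 ± 0.859), Cdon (4.37 ± 0.588), Ptch1 (2.31 ± 0.378), Gli2 (1.27 ± 0.360) and Gli1 (0.118 ± 0.104) came next in this order, and no other pair of neighbours overlapped in range. In mature mTEC the order was led by Hhip with 24.6 ± 2.08 and Smo with 6.81 ± 1.29 CPM per kb. Gas1 (3.38 ± 0.778), Cdon (2.62 ± 0.515), Boc (2.05 ± 0.509), Gli3 (1.69 ± 0.105) and Ptch1 (1.65 ± 0.208) followed, each overlapping the next in range. Gli2 had 0.864 ± 0.165 and Gli1 0.183 ± 0.122 CPM per kb there. Gas1 and Boc, at the top in immature mTEC, thus stood at places 3 and 5 in mature mTEC.

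**Figure D1:**
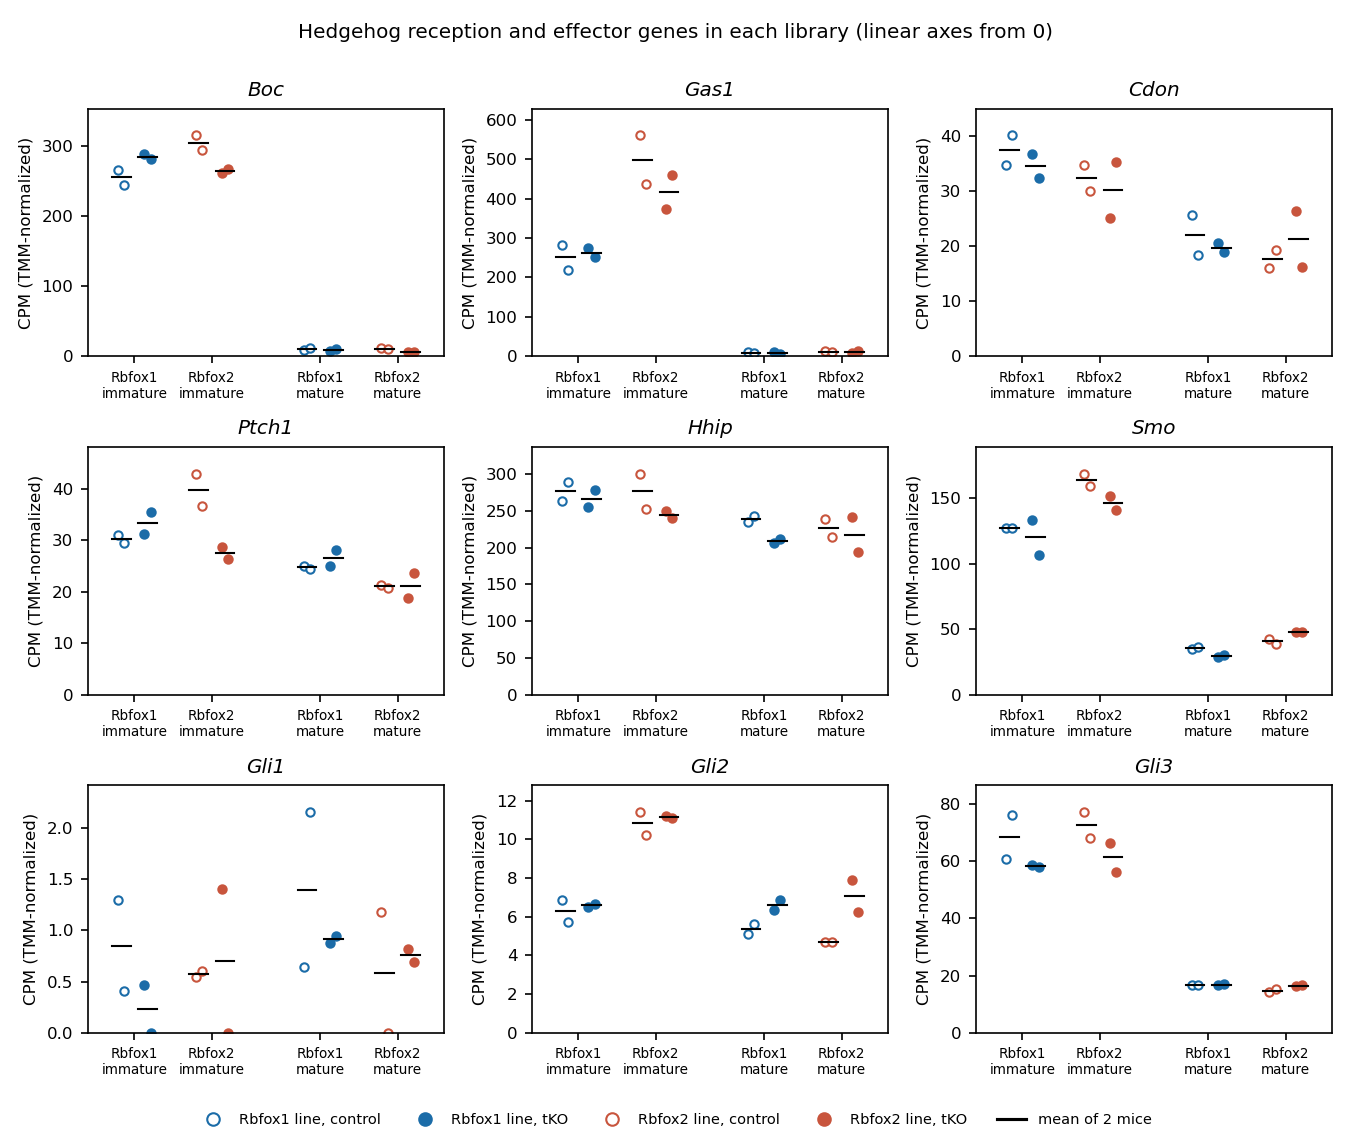
CPM after TMM normalization of each of the 9 genes (vertical axes, linear and from 0, each with its own scale) in the 16 libraries, grouped by population and mouse line, with open points for control mice, filled points for tKO mice and bars for the mean of 2 mice. Boc stood at 244 to 315 CPM in immature and 6.01 to 12.1 in mature mTEC, whereas the Hhip libraries lay between 194 and 301 CPM throughout.

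The coreceptor genes split between populations. Boc had 244, 274 and 315 CPM as the lowest, median and highest value of 8 immature libraries, and 6.01, 9.12 and 12.1 CPM in mature mTEC. Gas1, which encodes a lipid-anchored coreceptor related to the GDNF family receptors, had 219, 328 and 560 CPM in immature and 6.63, 10.1 and 13.6 CPM in mature mTEC. For both genes the lowest immature library was far above the highest mature one. Cdon, whose product is built like BOC, had 25.2, 34.9 and 40.2 CPM in immature and 15.98, 19.1 and 26.5 CPM in mature mTEC, and its ranges overlapped.

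The log2 fold change of mature minus immature mTEC in control mice was -4.71 for Boc (standard error 0.104), -5.08 for Gas1 (0.126) and -0.83 for Cdon (0.148). In tKO mice it was -5.17, -5.09 and -0.65. Counted from the lowest, Gas1 ranked 4 and Boc 14 of 16750 tested rows in control mice, and Boc ranked 13 and Gas1 14 of 16578 in tKO mice. Cdon ranked 2368 and 3124. These values include those that chose Boc and Gas1. In sorted bulk samples, fewer cells with a transcript and less of it per cell cannot be told apart.

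The transducer Smo, a seven-pass membrane protein, had 107, 137 and 169 CPM as lowest, median and highest value in immature and 28.4, 37.3 and 47.8 CPM in mature mTEC. Gli3, the main repressor among the GLI factors, had 56.2, 63.6 and 77.3 CPM against 14.1, 16.6 and 17.1 CPM. In both genes the populations were apart in all 16 libraries. The log2 fold changes in control mice were -1.93 for Smo (standard error 0.081) and -2.17 for Gli3 (0.122), and -1.82 and -1.83 in tKO mice.

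Ptch1 and Hhip, the genes for the receptor and for the decoy, differed less. Ptch1 had 26.4, 31.1 and 43.0 CPM in immature and 18.8, 24.0 and 28.2 CPM in mature mTEC, and Hhip had 240, 259 and 301 CPM against 194, 225 and 244 CPM. Their ranges overlapped, and their log2 fold changes were -0.61 and -0.25 in control mice and -0.33 and -0.25 in tKO mice. Gli2, the main activator of the family, had only 13 to 21 counts in an immature and 19 to 29 in a mature library, with log2 fold changes of -0.72 and -0.32. Gli1 had 0 to 3 counts in immature and 0 to 10 in mature libraries and was left out by the filter on low counts in every comparison. It had 0 counts in 3 libraries, which allows up to 2.08 CPM in the shallowest of them.

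Of the 8 genes that passed the filter, Boc, Gas1, Smo and Gli3 were more than 2-fold lower in mature mTEC, in control and in tKO mice. None was more than 2-fold higher. A call needed edgeR's adjusted p below 0.05 and a change of more than 2-fold. Of all tested rows, 11.1% were called lower and 26.8% higher in control mice, and 11.9% lower and 26.3% higher in tKO mice. Since the contrast entered the choice of the genes, no call is given for them here and nothing is read from their number under any setting.

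Levels of other cells' markers also differed between the populations. The summed CPM of 11 fibroblast markers was 625 to 3333 in immature and 501 to 852 in mature libraries. In control mice 6 of them, Dcn and Col3a1 among them, were called higher in immature and 4 higher in mature mTEC, of which Dpp4, Mfap5 and Pi16 passed the filter on low counts only through mature mTEC. Of 7 endothelial and pericyte markers 6 were tested, with 4 called higher in immature and 1, Cspg4, higher in mature mTEC, and 4 of 5 thymic tuft markers were called higher in immature mTEC. In the Rbfox1 line the fibroblast sums were 625 to 1005 CPM in immature and 501 to 673 CPM in mature mTEC, and single markers went in both directions. Fbn1 had 533 to 695 counts in immature and 248 to 356 in the deeper mature libraries, whereas Col1a1 had 83 to 218 against 692 to 873 and Pdgfrb 24 to 45 against 275 to 406. The part of the fibroblast, endothelial and tuft markers in the values of the 9 genes was not tested.

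The 5 rows whose profile over the 16 libraries was most like that of Boc, by the root mean square difference of centred log2 CPM over 16691 named genes, were Lifr (0.327), Slc27a3 (0.385), Mgp (0.394), 6030407O03Rik (0.418) and Gm10591 (0.432). For Gas1 they were Mgp (0.318), Vwa1 (0.320), Myl9 (0.326), Lifr (0.365) and Wfikkn2 (0.391). Gas1 had rank 8 from Boc and Boc rank 6 from Gas1, at a difference of 0.437. Both were chosen for their enrichment in immature mTEC, which dominates this measure, so their nearness follows from the choice. The next of the 9 genes was Gli3 at rank 454 from Boc and 483 from Gas1. Libraries of a mouse, a population and a depth are shared by all these profiles.

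The genes for Hedgehog ligands had more reads in mature mTEC and hardly any in immature mTEC. Shh, the gene for Sonic hedgehog, had 19 to 33 counts in mature and 0 to 3 in immature libraries, Dhh 96 to 132 against 1 to 4, and Ihh 24 to 50 against 0 to 9. In CPM, Shh had 4.10 to 7.76 in mature and 0 to 1.40 in immature libraries, Dhh 22.7 to 32.6 against 0.466 to 2.18, and Ihh 5.11 to 11.6 against 0 to 6.24. The populations did not overlap for Shh and Dhh, and for Ihh they did. These genes passed the filter on low counts only through mature mTEC, where they are high, so their difference is described and given no test. With counts pooled over the 4 control mice, Shh had 108 counts in mature and 2 in immature mTEC, a ratio of rates of 26.2 with an exact 95% interval of 7.09 to 219 that covers counting error only.

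Of 10 genes for ligands and their release, 9 passed the filter over both populations but only 3 within immature mTEC, Hhat, Disp1 and Disp2, and no count of calls or median is given for the list. Scube1, Scube2 and Scube3, whose secreted products help release the ligand, are in the same position as the ligand genes. Scube2 had 88 pooled counts in mature against 1 in immature mTEC of control mice, a ratio of 42.8 with an exact interval of 7.48 to 1708. Hhat, the acyltransferase that adds a lipid to the ligand, was called higher in mature mTEC (1.77 on the log2 scale, standard error 0.217, edgeR adjusted p = 7.88e-07). Disp1, which exports the ligand from the cell, was called lower, at -1.51 (0.182, edgeR adjusted p = 6.14e-07), and Disp2 had 0.59 and was not called. Thymocyte and blood markers were also higher in mature mTEC, 237 to 327 against 15.8 to 39.0 summed CPM over 8 genes. Most of the counts were those of Lyz2, with 792 to 1094 in mature and 18 to 37 in immature libraries. Ptcra, a thymocyte gene, had 2 to 8 counts in mature and 0 or 1 in immature libraries. The part of these markers in the differences of the ligand and release genes was not tested.

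**Figure D2:**
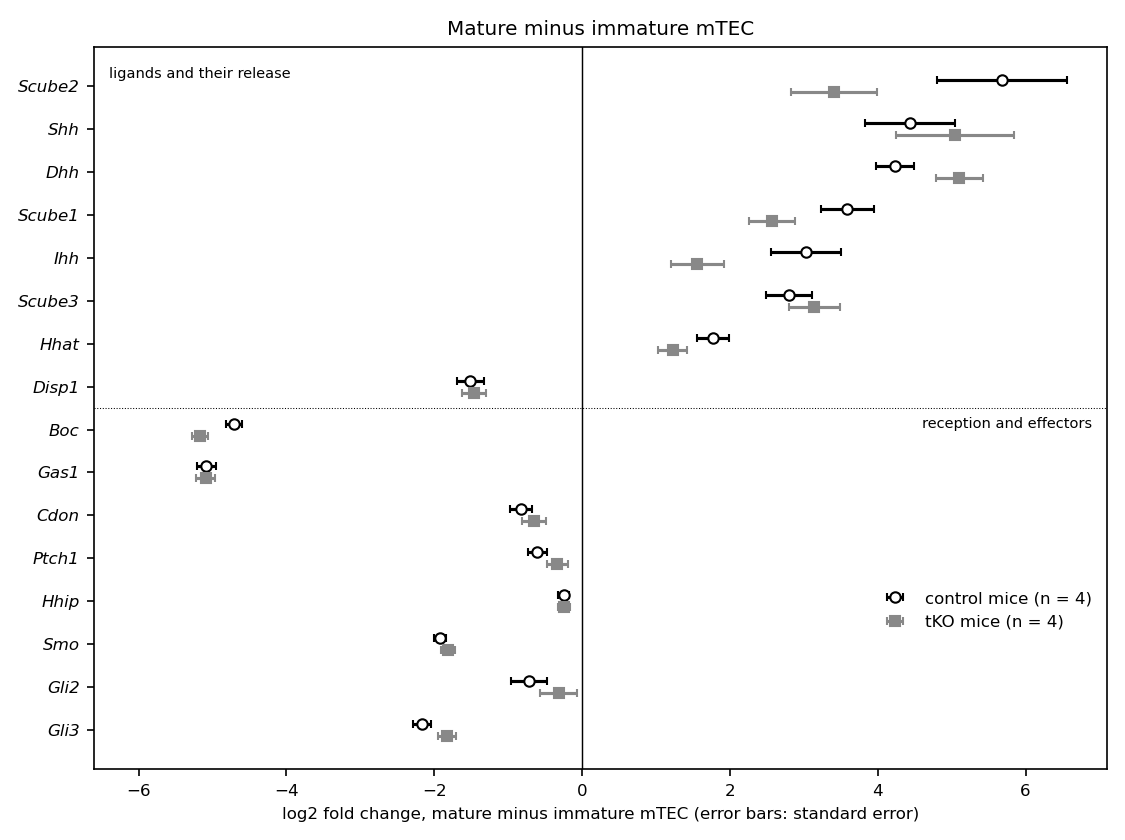
Log2 fold change of mature minus immature mTEC with its standard error (horizontal axis) for 8 genes of ligands and their release and, under the dotted line, 8 genes of reception and response, in 4 control mice (open circles) and 4 tKO mice (grey squares). The fitted values of the Scube genes and of Shh, Dhh and Ihh lean on very few counts in immature mTEC. These genes passed the filter on low counts only through mature mTEC. Boc and Gas1 were chosen for their enrichment in immature mTEC. Apart from Disp1 the upper genes drawn lie to the right of 0, from 1.23 for Hhat to 5.68 for Scube2. The reception genes lie to the left, from -5.17 for Boc to -0.25 for Hhip. Filter and choice shape this split, so nothing is read from it. Disp2 is not drawn.

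Other genes of the pathway were read against the 26.8% of rows called higher and the 11.1% called lower in mature mTEC of control mice. All 21 genes between SMO and GLI could be tested in each population. Of these 1 was called higher, Arrb2 (1.06), and 5 lower, led by the cilium gene Dzip1 (-2.08), Gpr161, a receptor that holds the pathway off (-1.22), and the kinesin gene Kif7 (-1.18). The median of the 21 log2 fold changes was -0.35, against 0.05 over all rows. Among 7 further membrane genes the glypican gene Gpc3 was called higher (1.07), and Lrp2, an endocytic receptor that passed the filter only through mature mTEC, had a fitted value of 3.93. None of 13 primary cilium genes was called in control mice, from Rab23 (-0.65) to Ift140 (0.42), with a median of -0.21, and 1, Rpgrip1l (-1.12), was called in tKO mice.

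Of 11 genes reported as Hedgehog targets in other tissues, 7 passed the filter in control mice. Sfrp1 (-1.70), Bcl2 (-1.67) and Ccnd1 (-1.43) were called lower in mature mTEC. Foxf1, Snai1 and Mycn passed the filter only through mature mTEC, where they are high. Their fitted values of 3.11, 1.76 and 1.26 are described and given no test. Of 15 structural relatives of the 9 genes 11 were tested. Gfra3 (2.65), Gfra1 (1.66) and Glis3 (1.13) were called higher and 5 lower, led by Gfra4 (-2.36), Gfra2 (-2.21) and Robo2 (-1.72). Here Gfra1 passed the filter only through mature and Gfra4 only through immature mTEC, so nothing is read from the calls of these genes. The Gfra genes encode GDNF family receptors, which GAS1 resembles, and ROBO2 is an axon guidance receptor of the immunoglobulin type, as BOC and CDON are. With 26.8% of all rows called higher and 11.1% lower, and with lists this small and shaped by the filter, the counts are given as a description. Apart from genes that passed the filter through a single population, the called genes named here had an edgeR adjusted p of at most 0.00859.

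Loss of Rbfox1 or Rbfox2 was compared next, within each line and over both lines with line as a covariate. None of the 8 tested genes was called in any of these 6 comparisons by edgeR or by DESeq2. In mature mTEC, 0.0166% of rows were called for Rbfox1, 0.0277% for Rbfox2 and 0.0222% over both lines, and in immature mTEC 0.0306%, 0.0536% and 0.0306%. With so few calls among all rows, a count of 0 among 8 genes stands near the background. At an unadjusted p under 0.05, edgeR had Boc for Rbfox2 and over both lines in mature mTEC and Ptch1 for Rbfox2 in immature mTEC, and DESeq2 had 1 gene for Rbfox2 in mature mTEC and 0 in the others. Of all rows, edgeR had 5.34%, 4.63% and 6.25% under that p in these 3 comparisons. A count of 1 among 8 genes is therefore not read as a result about the group.

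Boc had 24 and 26 counts in mature mTEC of the 2 Rbfox2 tKO mice and 50 and 42 in their controls, or 6.56 and 6.01 against 11.8 and 10.4 CPM. In the Rbfox1 line it had 8.09 and 9.95 CPM in tKO against 8.30 and 12.1 CPM in control mice. Both Rbfox2 tKO libraries were below both controls, whereas the Rbfox1 values overlapped. For this and other separations of 2 against 2 mice, the share over all rows was not computed. The log2 fold change was -0.82 for Rbfox2 (95% interval -1.41 to -0.24, edgeR adjusted p = 0.731), -0.18 for Rbfox1 (-0.71 to 0.36) and -0.50 over both lines (-0.90 to -0.10, edgeR adjusted p = 0.999). The difference between the Rbfox1 and the Rbfox2 effect was 0.65 with an interval of -0.15 to 1.44. In mature libraries of the Rbfox2 line the summed CPM of immature mTEC markers was 1675 and 1727 in tKO against 1957 and 1838 in control mice. It was 1515 and 1489 against 1646 and 1530 in the Rbfox1 line. Both tKO libraries were thus below both controls in each line. The part of these markers in the Boc values was not tested.

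In immature mTEC, where Boc was abundant, its CPM was 289 and 281 in Rbfox1 tKO against 266 and 244 in control mice and 261 and 267 in Rbfox2 tKO against 315 and 294 in control mice. The genotypes were apart in each line but in opposite directions. The log2 fold changes were 0.16 and -0.19, and the test of their difference gave 0.34 (95% interval 0.04 to 0.65, edgeR adjusted p = 0.975). Over both lines the difference was -0.02 with an interval of -0.17 to 0.13. The tKO effect on Boc in mature mTEC minus that in immature mTEC was -0.48 (-0.83 to -0.12, edgeR adjusted p = 0.885). None of the differences between effects was called for the 9 genes, where 0.00555% of rows were called between the lines in mature and 0.00766% in immature mTEC, and 0.0% between the populations.

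Gas1 had 275 and 251 CPM in immature mTEC of Rbfox1 tKO mice against 283 and 219 in controls, and 373 and 460 CPM in Rbfox2 tKO mice against 560 and 436 in controls. The values of tKO and control mice overlapped in each line. Over both lines its log2 fold change was -0.09 in immature (95% interval -0.30 to 0.12) and -0.12 in mature mTEC (-0.54 to 0.30). Ptch1 had 28.7 and 26.4 CPM in immature mTEC of Rbfox2 tKO mice against 43.0 and 36.7 in controls, and 31.2 and 35.4 against 31.0 and 29.5 in the Rbfox1 line. Its log2 fold change in the Rbfox2 line was -0.52 (-0.95 to -0.09, edgeR adjusted p = 0.722), which did not pass the test, and the difference between the lines' effects was 0.65 (0.07 to 1.24, edgeR adjusted p = 0.975).

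Smo had 28.4 and 30.3 CPM in mature mTEC of Rbfox1 tKO mice against 35.1 and 36.0 in controls, and 47.8 and 47.4 against 42.5 and 38.5 in the Rbfox2 line. The log2 fold changes of -0.28 and 0.23 differed by -0.50 (95% interval -0.90 to -0.10, edgeR adjusted p = 0.994). In mature mTEC the 4 tKO and 4 control libraries did not overlap for 1 of the 9 genes, Gli2, and in immature mTEC for 0. Gli2 had 6.24 to 7.92 against 4.69 to 5.61 CPM in mature mTEC, from 27 to 29 and 19 to 26 counts. The share of all rows without such overlap was not computed, so nothing is read from it. The log2 fold change of Gli2 over both lines was 0.44 (-0.01 to 0.89, edgeR adjusted p = 0.999). Over both lines the log2 fold changes of the 8 genes ran from -0.50 for Boc to 0.44 for Gli2 in mature and from -0.23 for Gli3 to 0.06 for Gli2 in immature mTEC, with medians of 0.01 and -0.11. Of 77 other genes of the pathway lists, 68 were tested in mature and 54 in immature mTEC, and 0 were called in any tKO comparison. Over both lines 2 and 4 were under an unadjusted edgeR p of 0.05, against 4.63% and 7.48% of all rows.

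**Figure D3:**
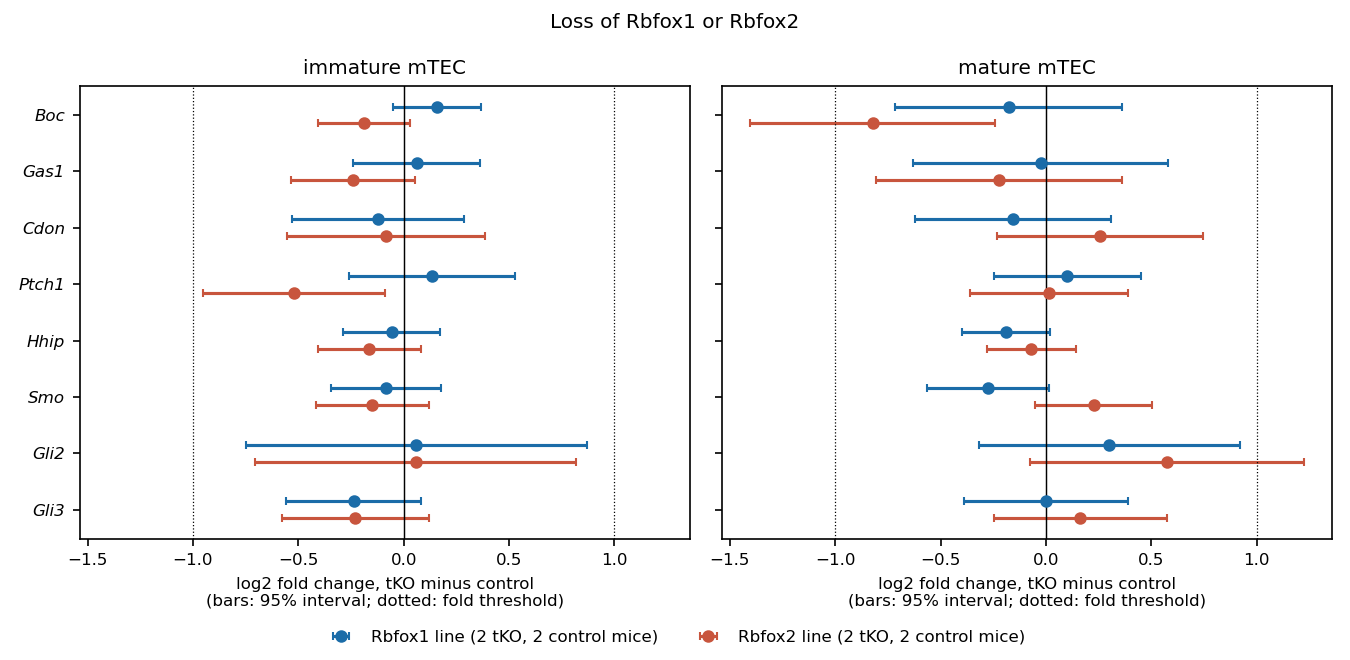
Log2 fold change of tKO minus control mice (horizontal axes) with its 95% interval for the 8 tested genes in immature (left) and mature mTEC (right), for the Rbfox1 line (blue) and the Rbfox2 line (red), with 2 tKO and 2 control mice each and dotted lines at the fold threshold of 2. The largest value is that of Boc in mature mTEC of the Rbfox2 line, -0.82, and the intervals of Gli2, the gene with the fewest counts of the 8, reach from -0.75 to 0.87 in immature mTEC of the Rbfox1 line.

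Mice of the 2 lines, 4 against 4 with genotype as a covariate, differed in Gas1. In immature mTEC the gene had 283, 219, 275 and 251 CPM in the Rbfox1 line and 560, 436, 373 and 460 CPM in the Rbfox2 line. Every mouse of the Rbfox2 line was above every mouse of the Rbfox1 line. The means were 257 ± 28.8 and 457 ± 77.9 CPM (SD, n = 4), and the log2 fold change of the Rbfox1 minus the Rbfox2 line was -0.83 (standard error 0.0998, edgeR adjusted p = 2.63e-05). In mature mTEC it was -0.32 (0.201, edgeR adjusted p = 0.313). Boc had 270.1 ± 19.6 against 284 ± 25.0 CPM in immature mTEC, a log2 fold change of -0.07 (95% interval -0.22 to 0.08), and with library totals as the scale its sign turned to 0.02.

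Smo was lower in the Rbfox1 line in both populations, with 107 to 134 against 141 to 169 CPM in immature and 28.4 to 36.0 against 38.5 to 47.8 CPM in mature mTEC, without overlap. Its log2 fold changes were -0.32 (standard error 0.088, edgeR adjusted p = 0.0146) and -0.45 (0.096, edgeR adjusted p = 0.00437). Gli2 had 5.74 to 6.89 CPM in the Rbfox1 and 10.2 to 11.4 CPM in the Rbfox2 line in immature mTEC, from 13 to 21 counts a library, a log2 fold change of -0.76 (0.262, edgeR adjusted p = 0.0449). Under other settings the edgeR or DESeq2 adjusted p in immature mTEC was above 0.05 for Smo without Rbfox1 tKO replicate 3 (0.0772), Rbfox2 tKO replicate 1 (0.0630) or Rbfox2 control replicate 1 (0.0562), with DESeq2 (0.0713) and with library totals (0.0541), and it rose to 0.271 for Gli2 with DESeq2. Leaving out any of the 8 libraries gave Gli2 an edgeR adjusted p of 0.0725 to 0.132. In mature mTEC the ranges of Ptch1 did not overlap either, 24.4 to 28.2 against 18.8 to 23.6 CPM, with a log2 fold change of 0.27 that did not pass the test (edgeR adjusted p = 0.156).

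None of these differences reached the fold threshold, so 0 of the 8 genes were called between the lines by edgeR or DESeq2, against 1.04% of all rows in mature and 5.05% in immature mTEC. By the adjusted p alone 1 gene passed in mature mTEC (Smo) and 3 in immature mTEC (Gas1, Smo and Gli2), against 13.2% and 23.4% of all rows. With so many rows passing in immature mTEC, 3 of 8 genes is not read as a result about the group. The ranges of the lines did not overlap for 2 of the 9 genes in mature and 3 in immature mTEC. The share of all rows without overlap was not computed, so nothing is read from these counts. Of the 77 other pathway genes 68 were tested in mature and 54 in immature mTEC. The kinase gene Stk36 had 26 to 33 counts in the Rbfox1 line against 5 to 13 in the Rbfox2 line in immature mTEC. It passed the filter on low counts there only through the Rbfox1 line, where it is high. Its fitted log2 fold change of 1.41 is therefore described and given no test. None of the other pathway genes was called between the lines.

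Markers of other cells moved with the line in the same libraries. In immature mTEC 7 of 8 tested fibroblast markers, of 11 on the list, were called lower in the Rbfox1 line, among them Col1a2 (-2.23), Pdgfra (-2.26) and Lum (-2.42), and Fbn1 (-0.83) passed the adjusted p alone. Their summed CPM was 625 to 1005 in the Rbfox1 and 2363 to 3333 in the Rbfox2 line, and Dpp4, Mfap5 and Pi16, which were not tested, had at most 11 counts. Of 7 endothelial and pericyte genes 3 were called lower too, with log2 fold changes of -1.86 for Pecam1, -1.50 for Cdh5 and -1.46 for Kdr. Cspg4, a pericyte gene, had 7 to 26 counts in the Rbfox1 line against 2 to 4 in the Rbfox2 line. It passed the filter on low counts only through the Rbfox1 line, so its fitted value of 1.51 is described and given no test. Aire was higher in the Rbfox1 line (2.71), with 414 to 730 against 28 to 78 counts. The summed CPM of immature mTEC markers was 6811 to 7592 in the Rbfox1 against 9163 to 9817 in the Rbfox2 line. The part of these markers in the values of Gas1, Smo and Gli2 was not tested. The line and anything else that differed between the 2 sets of mice, strain background included, cannot be told apart.

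**Figure D4:**
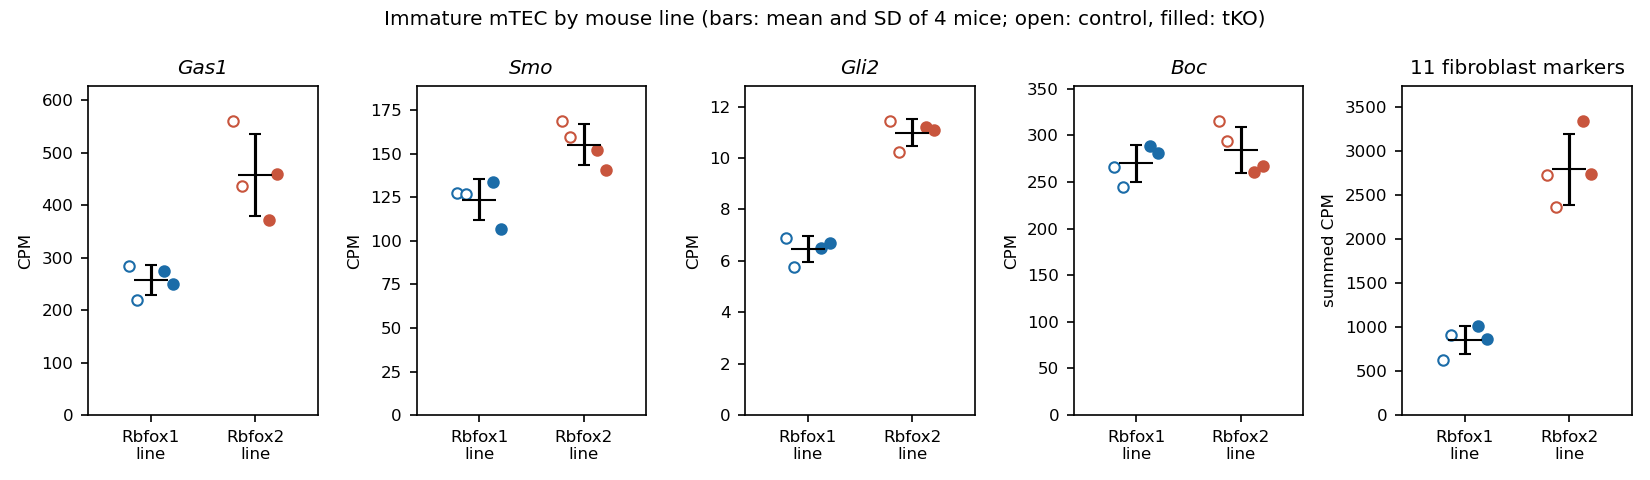
CPM of Gas1, Smo, Gli2 and Boc and summed CPM of 11 fibroblast markers (vertical axes from 0) in immature mTEC of the 4 mice of each line, with open points for control and filled points for tKO mice, and the mean and SD. Gas1 lies at 219 to 283 CPM in the Rbfox1 and 373 to 560 in the Rbfox2 line without overlap, as do Smo, Gli2 and the fibroblast markers, whereas the Boc values overlap.

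Male and female mice, 4 against 4 with a mean for each line and genotype taken out, were compared last. None was called, against 0.0277% of rows in mature and 0.0536% in immature mTEC. The log2 fold changes of male minus female mice ran from -0.26 for Gas1 to 0.30 for Boc in mature and from -0.10 for Gas1 to 0.19 for Gli3 in immature mTEC. The lowest edgeR adjusted p was 0.771. By edgeR 1 gene in mature mTEC, Hhip with 0.14 (95% interval 0.01 to 0.27), was under an unadjusted p of 0.05, against 6.40% of all rows. By DESeq2 none was.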

How the data were processed

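Poly(A) RNA of 16 sorted samples was sequenced as stranded read pairs. According to the submitters' processing notes, the authors aligned reads to mm10 with HISAT2 2.1.0, removed duplicates with Picard 2.10.9, down-sampled each library (to 14500000 in mature and 10000000 in immature mTEC by the column names) and deposited raw counts per gene from featureCounts 1.6.0. Down-sampling removes part of the difference in depth between libraries, and low counts such as those of Gli1 and Gli2 carry large counting error.

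From these counts, genotype, line, sex and population were compared with edgeR 4.0.16 (R 4.3.3), by the quasi-likelihood test after TMM normalization and filterByExpr with a minimum count of 10. P-values were adjusted by Benjamini-Hochberg over all rows tested, and a call needed an adjusted p under 0.05 and a fold change over 2, except for differences between effects, where the adjusted p was used alone. CPM are library-size scaled counts (edgeR's cpm with TMM factors), and CPM per kb are divided by the union of a gene's exons. DESeq2 1.42.0, other scalings and filters, a replicate block and leaving out each library were alternatives. Genes named are the 9 genes, of each pathway list the genes called for genotype, line or sex and the 3 of largest change in each direction among those called between populations in control mice, and the 5 profiles nearest to Boc and to Gas1. Ihh, Scube1, Scube3, Hhat and the cilium genes were named after their values were seen. The result of 1 gene of the lists is not reported here. The 9 genes and all lists were chosen with earlier results of these data known.

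Mature and immature libraries of the same number, line and genotype come from the same mouse, and their deviations from the group means correlated at 0.0885 to 0.164. Within a population each library is a separate mouse. Comparisons of genotype, line and sex set 2 to 4 mice a side against each other. Their spread was estimated over the 8 libraries of a population, since each condition had 2 mice. The main fits over both populations took the libraries of a mouse as separate, and a block for the mouse was an alternative. Counts were simulated for the tKO comparison over both lines in immature mTEC (13060 rows). Of the changes put in, 79% of 2-fold and 99% of 4-fold ones passed the adjusted p in the right direction. For mature against immature mTEC of control mice (16750 rows) the shares were 76% and 91%. The fold threshold of a call was not applied there, so the share of 2-fold changes that would be called was not measured. Intervals of pooled counts and limits for a count of 0 (3 counts) cover counting error only.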

Additional observations from a re-analysis of the deposited data

Results flagged for a closer look

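In immature mTEC of the Rbfox1 line, Gli3 had 76.3 CPM (186 counts) in the control male, replicate 3, and 58.0 to 60.7 CPM in the other 3 mice, so that this mouse lay far from the rest of its line (gap over range 0.854). It was 1 of 36 groups of 4 mice examined, and chance alone marks about 1 in 20 such groups.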

How the results depend on the processing

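Without the fold threshold more of the 9 genes were called in some comparisons, by construction of that setting. Between the lines the number became 1 in mature mTEC and 3 in immature mTEC. Between populations it became 8 in control mice and 7 in tKO mice. Of all tested rows, 11530 of 16750 in control and 11230 of 16578 in tKO mice passed the adjusted p there. Since that contrast chose Boc and Gas1, the counts between populations are no test and nothing is read from them. The other 253 counts of called genes under an alternative stayed within 1.5 times the reported count. Leaving out 1 library gave tKO minus control over both lines log2 fold changes of -0.33 to 0.03 for Gas1 in mature mTEC, turning the sign without Rbfox1 tKO replicate 3 (0.027) or Rbfox2 tKO replicate 1 (0.00013). In immature mTEC it gave -0.05 to 0.01 for Boc (-0.048 to 0.012) and -0.18 to 0.01 for Gas1 (-0.179 to 0.0057), turning the sign without Rbfox1 control replicate 2 or Rbfox2 control replicate 1 (0.0048 for Boc and 0.0011 for Gas1). None of these values was called. With library totals as the scale, Boc between the lines in immature mTEC became 0.016. The 16 settings under which a gene fell below the threshold concerned Smo and Gli2 between the lines in immature mTEC, and the cause was not tested.

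With the replicate number as a replicate block, 0 of the 9 genes were called in each tKO comparison, and Boc in mature mTEC of the Rbfox2 line was -0.82 (edgeR adjusted p = 0.454). Mice of the same number share the number and the sex, and their deviations correlated at 0.0357 to 0.147. For the fits between populations with the mouse as a block, no call of the 9 genes is given. Depth limits Gli1, which was not tested, and Gli2, with 13 to 29 counts a library.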
